A study of Mus musculus with 8 samples.

Results

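Interferon response genes were examined in mouse embryonic fibroblasts (MEFs) labelled as Lats2-/-, Lats2 being a kinase of the Hippo growth-control pathway. The list held 52 names of genes known to be induced by interferons, put together with earlier results of these data known, with older symbols included where the array uses them. Of these, 50 had a probe on the array, with 79 probes among 41174 gene probes. Probes were kept when the scanner software flagged them as well above background on the majority of arrays of at least 1 RNA extract, and 61 probes of 43 listed genes were kept, among 25349 kept probes. Mx1, Irf8, Oas1a, Oas1g, Oas2, Oas3 and Oasl1 had probes but none was kept. G1p2, an older symbol of Isg15, and Xaf1 matched no probe. Where a gene had several kept probes, the one with the highest mean signal stands for it.

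RNA of Lats2-/- MEFs was compared with RNA of Lats2+/+ MEFs from 3 litters, numbered 112, 116 and 121. Each litter gave 1 cell clone of each genotype (112-C, 116-D and 121-E for Lats2-/-, and 112-K, 116-H and 121-C for Lats2+/+), so that n is 3 litters. All 6 clones carry the strain name C57BL/6J, were grown in DMEM with inactivated fetal bovine serum and were left untreated. Both extracts of a litter shared each array, in 2 colours with the dyes swapped between arrays. Litters 112 and 116 had 2 arrays each on 1 slide, and litter 121 had 4 arrays on the other slide. The age of the embryos, the passage of the cells and the Lats2 allele are not given in the labels.

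Interferons are secreted proteins that cells release when sensors such as RIG-I and MDA5 meet viral nucleic acid. They bind paired receptor chains, and the Janus kinases attached to these phosphorylate transcription factors such as STAT2, which with IRF9 acts in the nucleus on the interferon-stimulated response element (ISRE) in the promoters of induced genes. Fibroblasts both make and answer type I interferon, and a low tonic level of the induced genes is known in cultured MEFs.

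Promoter sequences of 6 of the genes are shown first, because their expression separated the litters or was higher in Lats2-/- cells in every litter. They come from RefSeq, build GRCm38.p6, which matched 43 of the 51 distinct genes and not Mx1, Mx2, Oas2, Usp18, Ifi204, Iigp1, Tap2 or Parp14. Each line holds the 250 bases before the start site, 5′ to 3′ on the gene's strand. The capitals mark the ISRE letters GAAANNGAAA or their reverse complement TTTCNNTTTC, and in Isg20, where the ISRE letters were not found, they mark the GAS letters TTCNNNGAA, the core of the gamma-activated site. The stretches are chr19:34640639-34640888 on the plus strand for Ifit1, chr4:156200819-156201068 on the minus strand for Isg15, chr8:71537473-71537722 on the minus strand for Bst2, chr3:142559794-142560043 on the plus strand for Gbp3, chr11:48871421-48871670 on the minus strand for Irgm and chr7:78913174-78913423 on the plus strand for Isg20.
Ifit1: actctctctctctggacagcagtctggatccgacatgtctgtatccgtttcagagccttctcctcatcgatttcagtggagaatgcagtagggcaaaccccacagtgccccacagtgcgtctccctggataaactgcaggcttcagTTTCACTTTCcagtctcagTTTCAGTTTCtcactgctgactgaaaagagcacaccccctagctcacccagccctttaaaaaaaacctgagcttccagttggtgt
Isg15: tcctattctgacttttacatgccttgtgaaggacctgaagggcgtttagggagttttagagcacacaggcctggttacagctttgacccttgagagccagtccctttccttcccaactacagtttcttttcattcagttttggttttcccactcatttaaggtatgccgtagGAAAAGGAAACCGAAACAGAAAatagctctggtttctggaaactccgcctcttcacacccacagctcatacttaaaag
Bst2: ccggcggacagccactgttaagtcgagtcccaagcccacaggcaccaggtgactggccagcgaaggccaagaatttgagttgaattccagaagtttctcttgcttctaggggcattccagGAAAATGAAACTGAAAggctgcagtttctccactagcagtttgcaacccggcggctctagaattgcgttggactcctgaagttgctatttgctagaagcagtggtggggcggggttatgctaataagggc
Gbp3: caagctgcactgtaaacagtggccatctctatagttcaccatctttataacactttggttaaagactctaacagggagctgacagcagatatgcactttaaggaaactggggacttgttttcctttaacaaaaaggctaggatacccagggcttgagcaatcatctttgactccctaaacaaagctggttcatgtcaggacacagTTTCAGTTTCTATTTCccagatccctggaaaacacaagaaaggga
Irgm (Irgm1 in RefSeq): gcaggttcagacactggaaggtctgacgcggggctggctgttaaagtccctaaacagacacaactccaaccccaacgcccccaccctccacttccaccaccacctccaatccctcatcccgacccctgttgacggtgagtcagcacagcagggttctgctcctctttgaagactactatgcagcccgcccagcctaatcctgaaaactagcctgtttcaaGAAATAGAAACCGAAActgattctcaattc
Isg20: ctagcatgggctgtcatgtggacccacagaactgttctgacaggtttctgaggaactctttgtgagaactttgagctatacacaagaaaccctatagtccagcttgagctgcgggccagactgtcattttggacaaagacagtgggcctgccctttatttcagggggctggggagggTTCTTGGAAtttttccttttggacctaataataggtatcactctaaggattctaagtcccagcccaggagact

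The ISRE letters, searched on both strands over 250 bases before and 50 after a start site, were found in 23 of the 43 genes with a promoter (53.5%) and in 3.99% of 27025 genes in the table. The GAS letters, whose reverse complement is the same, were found in 14 of the 43 (32.6%) and in 9.55% of all genes. Positions are those of the first base of a match, counted from the start site. In Isg15, 3 overlapping matches begin between position -78 and position -66. Ifit1 has a match at position -104 and a second at position -85, and Gbp3 has overlapping matches at positions -45 and -39. In Bst2 the GAS letters at position -136 overlap the first ISRE match at position -130. RefSeq gives 3 start sites for Isg20 and 2 for Gbp3, of which 1 each is printed. The windows of their other start sites held neither the ISRE nor the GAS letters. These matches are letters in a window, and no binding was measured.

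Lats2 itself was lower in Lats2-/- cells of all 3 litters by its upstream probe, with ratios of -1.33, -1.05 and -0.56 (mean of -0.98 ± 0.39, SD over litters, n = 3; limma p of 0.00750, adjusted p of 0.755). The 3 other kept probes, nearer the end of the gene, had ratios from -0.70 to -0.18 in litters 112 and 116 and from 0.80 to 1.17 in litter 121. In litter 121, where most interferon response genes were lower, 1 of 4 probes thus had the sign of the label. Lats2-/- and Lats2+/+ are therefore the labels' names throughout, and each direction given for litter 121 rests on its labels. The study also shows a western blot of the Lats2 knockout in MEFs, whose legend names no litter. The labels do not say which part of the gene was deleted. Per channel and array, 52.8% to 61.3% of the gene probes stood well above background.

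Over the 3 litters, Isg20 and Irgm were the only genes of the list with an unadjusted p under 0.05, both higher in Lats2-/- cells. None of the 43 passed the adjusted threshold of 0.05 in limma's moderated test with Benjamini-Hochberg adjustment, where 0% of all kept probes passed and the smallest adjusted p was 0.651. The count of 2 higher at an unadjusted p under 0.05 stands beside 3.35% of all kept probes, and the count of 0 lower beside 3.18%. Only Isg20 was also at least 2-fold higher (0.556% of all kept probes) and 0 genes were at least 2-fold lower (0.174%). A ratio above 0 in all 3 litters was seen for 8 genes (15% of all kept probes) and a ratio below 0 in all 3 for 2 (14.2%). The 43 genes had 4.65% higher at an unadjusted p under 0.05, 2.33% at least 2-fold higher with it, 18.6% above 0 in all litters and 4.65% below 0 in all litters. Since a litter holds 1 clone per genotype, the p-values measure the spread between litters, and the number of litters limits their precision. Of the genes with 1 sign in all 3 litters, Ifih1, Gbp1, Ifi202b, Ifi44, Rsad2 and Usp18 were not above background in both extracts of every litter.

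Isg20 encodes an exonuclease that degrades viral RNA. Its probe (chromosome 7, 78790105 to 78790164 in mm8) had log2 signals of 9.15, 9.84 and 9.34 in the Lats2-/- extracts of litters 112, 116 and 121. The Lats2+/+ extracts had 7.56, 9.20 and 7.97. The Lats2-/- extract was the brighter one on 8 of 8 arrays, while the genotypes overlapped across litters, since the Lats2+/+ extract of litter 116 exceeded the Lats2-/- extract of litter 112. The log2 ratios of 1.59, 0.65 and 1.37 had a mean of 1.20 ± 0.49 (SD over litters, n = 3), with an unadjusted p of 0.00735 in limma and 0.755 after adjustment. The second kept probe gave 1.19, 0.43 and 0.90. When the 8 arrays were taken as observations with a random block, Isg20 passed the adjusted threshold with litter as the block (adjusted p of 0.0130 in limma), with slide (0.0244) and with litter and a dye term (0.0192). The arrays of a litter share their 2 extracts, so these fits hold no further embryos. Without the litter pairing the adjusted p was 1.0.

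Irgm, the immunity-related GTPase Irgm1 that acts on membranes around intracellular pathogens, had log2 signals of 11.23, 11.35 and 12.89 in Lats2-/- cells of litters 112, 116 and 121. Its Lats2+/+ signals were 10.95, 10.66 and 12.54. Within each litter the Lats2-/- extract was higher, on 8 of 8 arrays, whereas both extracts of litter 121 exceeded all 4 of the other litters. The ratios of 0.28, 0.70 and 0.35 had a mean of 0.44 ± 0.22 (SD over litters, n = 3; limma p of 0.0285, adjusted p of 0.755), and the second kept probe gave 0.30, 0.65 and 0.32. The unadjusted p was above 0.05 without any 1 of the litters, at 0.0612 without litter 112, 0.0798 without litter 116 and 0.0736 without litter 121. It was 0.525 in a fit without the litter pairing.

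The litters pointed in different ways. In litter 121, 33 of the 43 genes were lower in Lats2-/- cells, with a median log2 ratio of -0.76. In litter 112 the median was 0.17 with 31 of 43 higher, and in litter 116 it was 0.49 with 36 of 43 higher. Of all kept probes, 49.0%, 49.9% and 49.2% were lower in litters 112, 116 and 121. In litter 112 only 30 of the 43 genes were above background in Lats2-/- and 26 in Lats2+/+ cells, so part of the signs there come from background signals. Among the 23 genes with a probe above background in all 6 extracts, the medians were 0.28, 0.50 and -0.67 in litters 112, 116 and 121. With the processed signals of the scanner software, and equally with the deposited value table, the medians were 0.45, 0.69 and -1.31 in litters 112, 116 and 121. The medians over all kept probes were 0.01, 0.00 and 0.00. The median of the 3-litter means was 0.07, beside 0.01 over all kept probes. No test of a difference between litters was possible, because each litter holds 1 extract of each genotype. Slide 2 held litter 121 alone, so litter and slide cannot be told apart for it, although both genotypes of the litter lay on the same arrays.

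**Figure D1:**
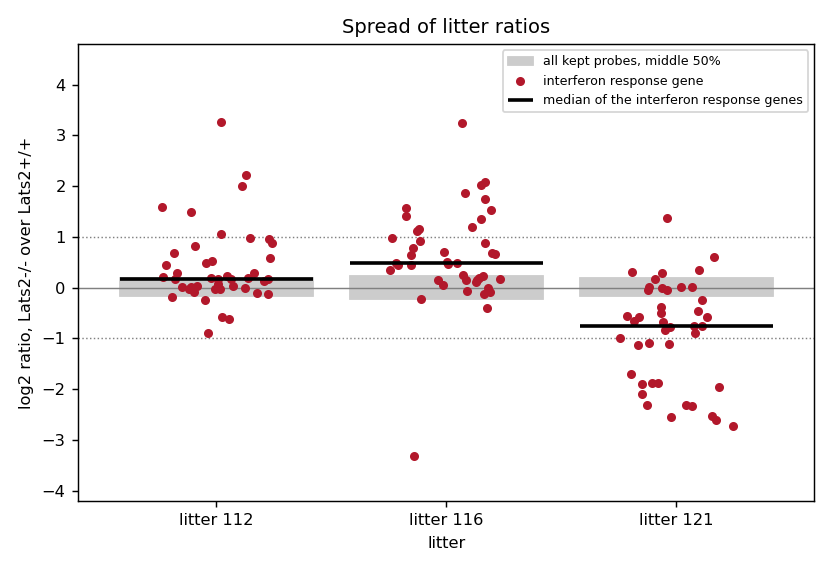
Log2 ratios, Lats2-/- over Lats2+/+, of the 43 interferon response genes (red points, 1 per gene, set apart sideways for display) in each litter on the x axis. Black lines are their medians (0.17, 0.49 and -0.76), grey boxes hold the middle 50% of all kept probes, and dotted lines mark 2-fold; the points lie mostly above 0 in litters 112 and 116 and mostly below it in litter 121.

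At least 2-fold differences followed the same division. In litter 121, 16 genes were at least 2-fold lower in Lats2-/- cells (2.51% of all kept probes) and 1 was at least 2-fold higher (3.71%). In litter 116, 12 were at least 2-fold higher (4.24%) and 1 was lower (3.01%). In litter 112, 6 were at least 2-fold higher (2.30%) and 0 were lower (1.11%). Ifitm3, Isg15 and Parp14 belonged to the 16 in litter 121 and also to the 12 in litter 116. The size of these counts differed with the signals used and with the filter, for a reason that was not tested. With the processed signals of the scanner software, 28 genes were at least 2-fold lower in litter 121 (6.21% of all kept probes), and the 6 of litter 112 became 15 (6.13%). Among the 23 genes with a probe above background in all 6 extracts, 9 were at least 2-fold lower in litter 121 (2.41%), and 5 were 2-fold or more above Lats2+/+ cells in litter 116 (4.32%).

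**Figure D2:**
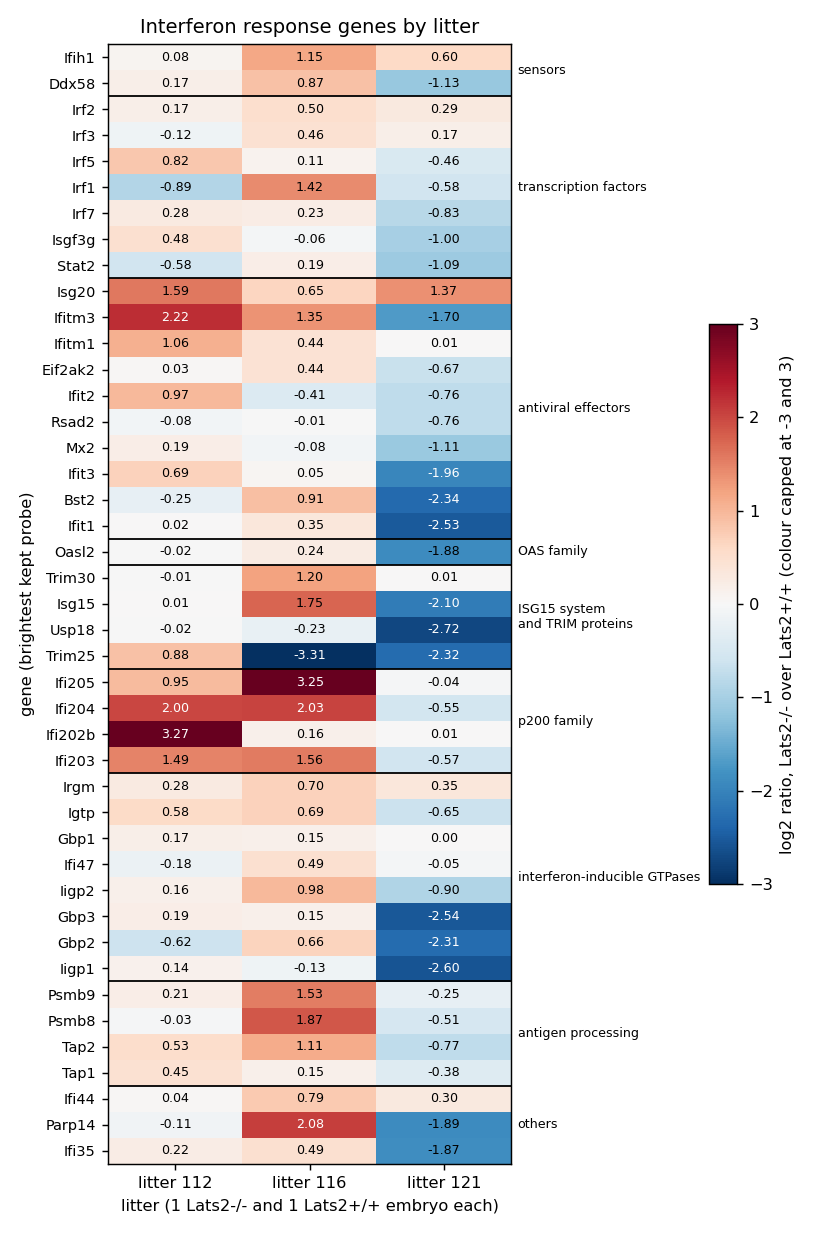
Log2 ratios, Lats2-/- over Lats2+/+, of each interferon response gene (rows, grouped by role) in each litter (columns), with red for higher and blue for lower in Lats2-/- cells and colours capped at -3 and 3. Isg20 was higher in all 3 litters, Ifi203, Ifi204 and Ifi205 were higher in litters 112 and 116, and Usp18, Iigp1, Gbp3, Ifit1, Bst2, Trim25, Gbp2 and Isg15 had ratios between -2.72 and -2.10 in litter 121.

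The signals of the 6 extracts differed between litters in both genotypes. The Lats2+/+ extract of litter 121 was the brightest of the 6 for 17 of the 43 genes (11.4% of all kept probes), and the Lats2-/- extract of litter 116 for 15 (15.7%). The Lats2+/+ extract of litter 112 was the dimmest for 18 genes (15.2%), and the Lats2-/- extract of litter 121 for 9 (23.2%). The number of genes above background was 26, 36 and 40 in the Lats2+/+ extracts of litters 112, 116 and 121. In Lats2-/- extracts it was 30, 41 and 33. The range over the 3 extracts of a genotype had a median of 1.67 log2 units in Lats2-/- cells and 1.28 in Lats2+/+ cells, where all kept probes had 0.46 and 0.44. These signals were compared across arrays after quantile normalization. In bulk RNA of this kind, fewer cells that express a gene and less RNA per cell cannot be told apart.

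The 2 sensors of viral RNA, Ddx58 (RIG-I) and Ifih1 (MDA5), had opposite signs in litter 121. Ddx58 had ratios of 0.17, 0.87 and -1.13 in litters 112, 116 and 121, and its 3 other kept probes had the same signs in litters 116 and 121 with smaller sizes. Its Lats2+/+ signal was 9.63 in litter 121, against 7.44 and 8.13 in litters 112 and 116. Ifih1 was higher in all 3 litters by 0.08, 1.15 and 0.60, with a mean of 0.61 ± 0.53 (SD over litters, n = 3; limma p of 0.0695, adjusted p of 0.756), and it was brightest in both extracts of litter 121, at 8.84 and 8.24. In litter 112 Ifih1 was above background on 1 array only, and its second kept probe, at background in litters 112 and 116, gave 0.29 in litter 121.

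Among the transcription factors that carry the interferon signal, 7 of 8 were kept and 0 had an unadjusted p under 0.05 in either direction. Stat2, a part of the ISRE-binding complex, had log2 signals of 9.62, 10.72 and 10.18 in Lats2-/- cells and of 10.21, 10.53 and 11.27 in Lats2+/+ cells of litters 112, 116 and 121. Its ratios were -0.58, 0.19 and -1.09, a mean of -0.49 ± 0.65 (SD over litters, n = 3; adjusted p of 0.805 in limma). Isgf3g, the older symbol of Irf9 and the DNA-binding part of the same complex, had ratios of 0.48, -0.06 and -1.0. Irf1, an activator that interferon gamma induces quickly, stood at -0.89, 1.42 and -0.58, with a mean of -0.02 ± 1.25 (SD over litters, n = 3; adjusted p of 0.996 in limma). Irf7, which amplifies interferon alpha genes, was close to background, with ratios of 0.23 and -0.83 in litters 116 and 121. In litter 112 it was detected in Lats2-/- cells alone, at least 1.21-fold higher. Irf2, an antagonist of Irf1, was higher in 3 of 3 litters and on 8 of 8 arrays, by 0.17, 0.50 and 0.29 (limma p of 0.0515, adjusted p of 0.755). Irf3 and Irf5 had ratios between -0.46 and 0.82.

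The antiviral effectors, which act on virus entry, replication or release, were mostly lower in litter 121. Of 11 listed, 10 were kept, and 8 of these were lower in Lats2-/- cells of litter 121, with a median of -0.94. Ifit1, which binds viral RNA that lacks cap methylation, was not above background in either extract of litter 112. It had log2 signals of 8.02 in Lats2-/- and 7.67 in Lats2+/+ cells of litter 116. In litter 121 the Lats2+/+ extract had 8.77 on 4 of 4 arrays above background, while the Lats2-/- extract had 6.24 and was above background on 1 of 4. Its ratios were 0.02, 0.35 and -2.53, and the mean of -0.72 ± 1.57 (SD over litters, n = 3; adjusted p of 0.848 in limma) became 0.18 without litter 121. The promoter printed above for Ifit1 lies on chromosome 19, as does its probe.

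Ifit3, a partner of Ifit1, was well above background throughout. It had log2 signals of 8.98, 10.52 and 8.65 in Lats2-/- cells and of 8.29, 10.46 and 10.60 in Lats2+/+ cells of litters 112, 116 and 121. Both extracts of litter 116 and the Lats2+/+ extract of litter 121 stood together above the other 3. The ratios were 0.69, 0.05 and -1.96. Ifit2, a further member of that family, had 0.97, -0.41 and -0.76, and its second probe had the same signs.

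Bst2 (tetherin), which holds budding virus particles at the cell surface, had log2 signals of 9.07, 10.99 and 9.20 in Lats2-/- cells and of 9.32, 10.08 and 11.53 in Lats2+/+ cells. It was brightest in the Lats2+/+ extract of litter 121 and next in the Lats2-/- extract of litter 116. Its ratios of -0.25, 0.91 and -2.34 had a mean of -0.56 ± 1.65 (SD over litters, n = 3; adjusted p of 0.886 in limma). Ifitm3, a membrane protein that blocks virus entry, had log2 signals of 13.90, 14.48 and 11.32 in Lats2-/- cells against 11.68, 13.14 and 13.03 in Lats2+/+ cells. The Lats2-/- extract was higher in litters 112 and 116, by 2.22 and 1.35, and lower in litter 121, with a ratio of -1.70. Its mean of 0.62 ± 2.06 (SD over litters, n = 3; adjusted p of 0.901 in limma) became -0.18 without litter 112. Ifitm1, of the same family, had ratios of 1.06, 0.44 and 0.01, all above 0.

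Several of the remaining effectors were at background in part of the extracts. Mx2, a dynamin-like GTPase, was not above background in litter 112 and had ratios of -0.08 and -1.11 in litters 116 and 121. Rsad2 (viperin) was detected in Lats2+/+ cells of litter 121 on 4 of 4 arrays, and Lats2-/- cells were at least 1.67-fold lower. Eif2ak2, the kinase PKR that halts translation, had 0.03, 0.44 and -0.67. Of the 6 listed genes of the OAS family, which make the activator of RNase L or resemble those that do, Oasl2 alone was kept. Its Lats2+/+ signal in litter 121 was 8.01, its Lats2-/- signal there was not above background on any array, and Lats2-/- cells were at least 3.61-fold lower. In litter 116 Oasl2 stood at 6.80 in Lats2-/- and 6.55 in Lats2+/+ cells.

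**Figure D3:**
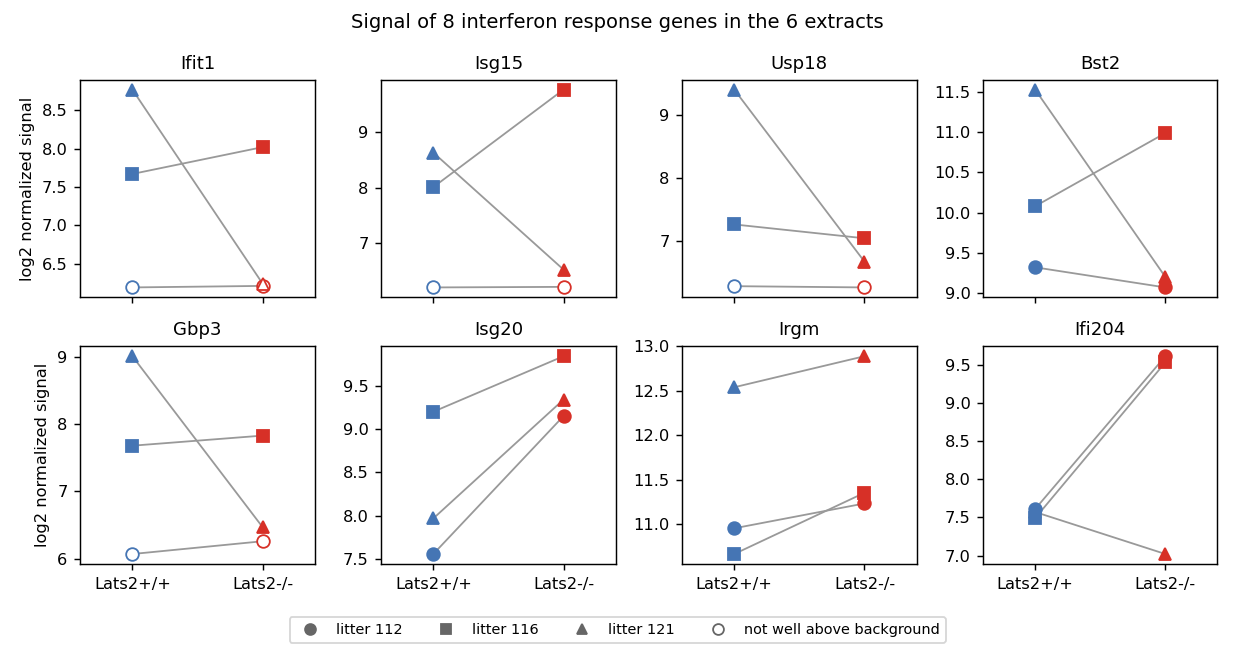
Log2 normalized signals of 8 interferon response genes in the 6 extracts, with lines joining the Lats2+/+ (blue) and Lats2-/- (red) extract of a litter, 1 symbol per litter, and open symbols where the probe was not well above background on most arrays of the extract; each panel has its own y axis. For Ifit1, Isg15, Usp18, Bst2 and Gbp3 the line of litter 121 falls steeply from the Lats2+/+ extract, and for Isg20 and Irgm all 3 lines rise.

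Isg15, the ubiquitin-like modifier, and Usp18, the protease that removes it and that also restrains the type I receptor, were both at background in litter 112. Isg15 had log2 signals of 9.76 in Lats2-/- and 8.01 in Lats2+/+ cells of litter 116, and of 6.53 and 8.63 in litter 121. The ratios of 1.75 and -2.10 thus opposed each other, and the mean was -0.11 ± 1.93 (SD over litters, n = 3; adjusted p of 0.986 in limma). The file places this probe on chromosome 17 in mm8 while RefSeq has Isg15 on chromosome 4, so the identity of the probe rests on its gene name. Usp18 had 7.05 and 7.27 in litter 116, and 6.68 in Lats2-/- against 9.41 in Lats2+/+ cells of litter 121. Its ratios of -0.02, -0.23 and -2.72 made it 1 of the 2 genes below 0 in all litters, with Rsad2, and its mean was -0.99 ± 1.5 (SD over litters, n = 3; adjusted p of 0.811 in limma). Without litter 121 the mean of Usp18 was -0.12.

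The TRIM proteins are ubiquitin ligases. Trim25, which ubiquitinates RIG-I, had log2 signals of 11, 7.03 and 7.98 in Lats2-/- cells and of 10.13, 10.34 and 10.30 in Lats2+/+ cells of litters 112, 116 and 121. The Lats2+/+ extracts were alike and the Lats2-/- extracts of litters 116 and 121 were lower. The ratios were 0.88, -3.31 and -2.32 (mean of -1.59 ± 2.19, SD over litters, n = 3; adjusted p of 0.805 in limma), and the second probe gave 0.18 in litter 112. In litters 116 and 121 that probe was detected in Lats2+/+ cells alone, with Lats2-/- cells at least 1.47-fold and 1.91-fold lower. The mean of the brighter probe was -2.82 without litter 112 (unadjusted limma p of 0.00508) and -0.72 without litter 116 (0.516). Trim30 was detected in Lats2-/- cells of litter 116 alone, at least 2.30-fold above Lats2+/+ cells.

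The p200 family, nuclear DNA-binding proteins that include relatives of human IFI16, had 4 kept genes. All 4 were higher in Lats2-/- cells of litter 112, with a median of 1.75. In litter 116 the 3 that were above background, Ifi203, Ifi204 and Ifi205, were higher as well, and Ifi202b was at background. Ifi204 had log2 signals of 9.61 and 9.53 in Lats2-/- cells of litters 112 and 116 against 7.61 and 7.49 in Lats2+/+ cells. In litter 121 both extracts were low, at 7.02 and 7.57. Its ratios were 2.0, 2.03 and -0.55, with a mean of 1.16 ± 1.48 (SD over litters, n = 3; adjusted p of 0.798 in limma), and its 2 other kept probes had the same signs in each litter. Ifi203 followed with 1.49 and 1.56 in litters 112 and 116, and in litter 121 it was detected in Lats2+/+ cells alone, with Lats2-/- cells at least 1.49-fold lower.

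Ifi205 had log2 signals of 7.37, 11.04 and 9.06 in Lats2-/- cells and of 6.42, 7.79 and 9.10 in Lats2+/+ cells. The ratios of 0.95, 3.25 and -0.04 had a mean of 1.39 ± 1.69 (SD over litters, n = 3; adjusted p of 0.797 in limma). That mean was 0.46 without litter 116 and 2.10 without litter 121. Ifi202b, whose level is known to differ widely between inbred mouse strains, was above background in litter 112 alone, at 11.68 in Lats2-/- and 8.41 in Lats2+/+ cells. No array of litters 116 and 121 showed it above background. Its 1 measured ratio was therefore 3.27, and the mean of 1.15 ± 1.84 (SD over litters, n = 3; adjusted p of 0.819 in limma) rests on that litter, being 0.09 without it. Ifi202b, Ifi203, Ifi204 and Ifi205 all lie on chromosome 1. The mean of Ifi204 was 0.74 without litter 112 (unadjusted limma p of 0.429), 0.73 without litter 116 (0.427) and 2.02 without litter 121 (7.37e-04). That of Ifi203 was 0.49 (0.516), 0.46 (0.526) and 1.52 (0.00166) in the same order, and the lowest adjusted p of either gene was 0.748 in these fits.

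The interferon-inducible GTPases, which attack the vacuoles of intracellular pathogens, were all 8 kept, and 6 of 8 were lower in Lats2-/- cells of litter 121. Gbp2 had log2 signals of 6.79, 9.03 and 7.29 in Lats2-/- cells and of 7.42, 8.37 and 9.60 in Lats2+/+ cells of litters 112, 116 and 121. Its ratios were -0.62, 0.66 and -2.31. Gbp3 was not above background in litter 112, had 7.83 and 7.68 in litter 116, and had 6.47 in Lats2-/- against 9.01 in Lats2+/+ cells of litter 121, a ratio of -2.54. Iigp1 was near background in litters 112 and 116, and in litter 121 its Lats2+/+ signal was 8.85 against 6.25 in Lats2-/- cells, which were above background on 2 of 4 arrays (ratio of -2.60). These 3 genes had means of -0.76, -0.73 and -0.86, each of which turned to a value above 0 without litter 121 (0.02, 0.17 and 0.01).

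Igtp and Iigp2 were at 0.58, 0.69 and -0.65 and at 0.16, 0.98 and -0.90, within 2-fold in each litter. Ifi47 and Gbp1 had ratios between -0.18 and 0.49. Irgm, described above, and Gbp1 were the 2 GTPases with a ratio above 0 in all 3 litters, and Gbp1 was above background in litter 116 alone.

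The antigen-processing genes, which supply peptides to MHC class I, were higher in Lats2-/- cells of litter 116 in 4 of 4 cases and lower in litter 121 in 4 of 4, with medians of 1.32 and -0.44. Psmb8, a catalytic subunit of the immunoproteasome, was detected in Lats2-/- cells alone in litter 116, at least 3.64-fold above Lats2+/+ cells. In litter 121 it was detected in Lats2+/+ cells alone, and Lats2-/- cells were at least 1.42-fold lower. Psmb9, a second such subunit that neighbours Psmb8 on chromosome 17, had 0.21, 1.53 and -0.25. The peptide transporter genes Tap2 and Tap1 had 0.53, 1.11 and -0.77, and 0.45, 0.15 and -0.38. Among the ungrouped genes, Ifi35 had ratios of 0.22, 0.49 and -1.87, its Lats2-/- signal of 7.85 in litter 121 being the lowest of the 6 extracts. Parp14 had -0.11, 2.08 and -1.89 by its brightest probe. Its 2 dimmer kept probes were detected in Lats2-/- cells alone in litter 116, at least 1.12-fold and 1.77-fold higher. Ifi44 was at background in litter 112 and had ratios of 0.79 in litter 116 and 0.30 in litter 121, whereas its second kept probe, at background in litters 112 and 116, had -0.34 in litter 121.

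The promoters printed above bear on these litter values only as a description. Of the kept genes with a promoter in the table, 20 had the ISRE letters, and 9 of these were at least 2-fold lower in Lats2-/- cells of litter 121, with a median ratio of -0.83. Of the 17 without the letters, 3 were at least 2-fold lower there, with a median of -0.46. In litter 116 the medians were 0.70 with the letters and 0.44 without, and in litter 112 they were 0.16 and 0.28.

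Repeat arrays of a litter were compared through their dyes. Both dye orientations gave the same sign for 31, 41 and 39 of the 43 genes in litters 112, 116 and 121, and the median gap between orientations was 0.13, 0.09 and 0.12 log2 units. The largest gap was 0.58. Among 14 genes with several kept probes, all probes of a gene shared a sign in 11 cases in litter 112 and in 12 cases in each of the other litters. Across the 43 genes, the Pearson correlation of litter ratios was 0.00889 between litters 112 and 116, 0.235 between litters 112 and 121 and 0.269 between litters 116 and 121. Over all kept probes it was 0.128, 0.0547 and -0.0126 in the same order. These correlations are given as a description over genes that share extracts.

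Other genes of the pathway were read from a list of 67 names chosen by their place in the pathway, also with earlier results known, of which 59 were on the array and 51 were kept. The genes that encode the ligands were at background: Ifnb1, Ifng, Ifna2, Ifna4 and Ifna11 were not above background on any array, and Ifna1 was so in 1 extract alone. No gene of the 51 passed the adjusted threshold. At an unadjusted p under 0.05, 4 were higher in Lats2-/- cells and 0 were lower, beside the 3.35% and 3.18% of all kept probes.

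All 4 encode receptor chains: Il10rb, shared by the interferon lambda and interleukin-10 receptors, Ifnar1 and Ifnar2 of the type I receptor, and Ifngr2 of the interferon gamma receptor. Il10rb had log2 signals of 10.56, 10.84 and 11.24 in Lats2-/- cells and of 9.52, 9.81 and 10.27 in Lats2+/+ cells of litters 112, 116 and 121, so that every Lats2-/- extract exceeded every Lats2+/+ extract. Its ratios of 1.03, 1.03 and 0.97 had a mean of 1.01 ± 0.03 (SD over litters, n = 3), which is 2.02-fold, with an unadjusted p of 4.78e-04 in limma and 0.651 after adjustment. Ifnar1 had 8.52, 8.60 and 8.42 against 7.52, 8.03 and 7.85, again without overlap, and its ratios of 1.0, 0.57 and 0.57 gave a mean of 0.71 ± 0.25 (SD over litters, n = 3; limma p of 0.00779, adjusted p of 0.755).

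Ifnar2 had ratios of 1.12, 0.46 and 0.37 (mean of 0.65 ± 0.41, SD over litters, n = 3; limma p of 0.0325, adjusted p of 0.755) and its second probe 0.82, 0.15 and 0.20. Ifngr2 had 0.80, 1.48 and 0.35 (mean of 0.88 ± 0.57, SD over litters, n = 3; limma p of 0.0296, adjusted p of 0.755) and its second probe 0.38, 1.08 and 0.17. Each of the 4 was higher on 8 of 8 arrays. The alternative settings described below were not read out for these receptor genes. Ifngr1, the partner of Ifngr2 on chromosome 10, was also higher in 3 of 3 litters by 0.27, 1.08 and 0.30 (limma p of 0.0671, adjusted p of 0.756). Il28ra, the partner of Il10rb in the interferon lambda receptor and the other kept receptor gene, went another way. It was at background in litter 112, was detected in Lats2+/+ cells alone in litter 116 (Lats2-/- cells at least 1.26-fold lower) and in Lats2-/- cells alone in litter 121 (at least 2.10-fold higher).

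Il10rb, Ifnar1, Ifnar2 and Ifngr2 are neighbours, with probes between positions 91282658 and 91452655 of chromosome 16 in mm8. Their 6 kept probes were above 0 in all 3 litters, with medians of 0.91, 0.80 and 0.36. The 46 other kept probes within 1 Mb had medians of 0.21, -0.06 and 0.13, and 13 of them (28.3%) were above 0 in all 3 litters. By 1 probe each, Synj1 had 1.02, 0.48 and 0.47 and Son had 0.58, 0.25 and 0.37, while Slc5a3 had -0.22, -1.88 and -1.13. The receptor genes had been singled out for being higher, so the share of their probes above 0 follows in part from that choice. All 823 kept probes of chromosome 16 had medians of -0.01, -0.02 and 0.12, and 18.2% were above 0 in all 3. Since these neighbours were looked at after the receptor values were known, the values are a description.

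**Figure D4:**
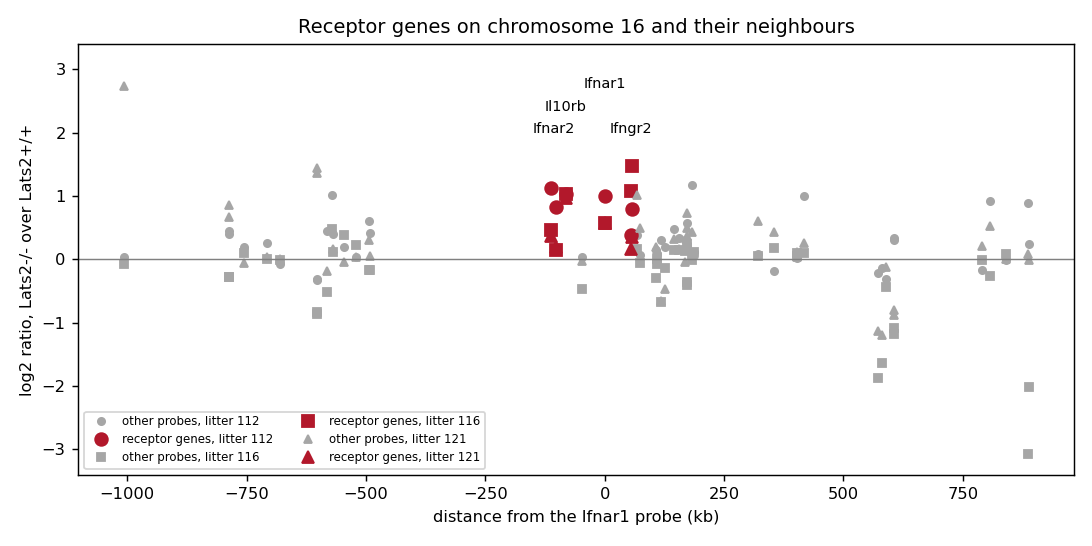
Log2 ratios, Lats2-/- over Lats2+/+, of kept probes on chromosome 16 against their distance from the Ifnar1 probe in kb, with 1 symbol per litter, receptor genes in red and other probes in grey. The red points of Ifnar2, Il10rb, Ifnar1 and Ifngr2 all lie above 0, between 0.15 and 1.48, while the grey points lie on both sides of 0.

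Downstream of the receptors, Jak1 had ratios of 0.22, 1.20 and 0.31 and Tyk2 had 0.95, -0.03 and -0.08. Of the further induced genes, Rtp4, a chaperone of membrane receptors, had ratios of 0.04, -0.48 and -2.06, the last being the lowest of the 51 in litter 121. Others differed, such as Ifi27 with -0.37, 2.62 and 0.03 and Gbp5 with -0.01, 0.18 and -0.17. The chemokine Cxcl10 stood at 1.63 in litter 116 and, in litter 121, was measured in Lats2+/+ cells alone, at least 2.15-fold above Lats2-/- cells. The MHC class I genes H2-K1 and H2-D1 had 0.13, 2.53 and -0.58, and 0.62, 1.82 and -1.08. Over the 51 genes the medians were 0.16, 0.45 and -0.16, and in litter 121, 36 were lower and 15 higher.

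Markers of cell types were read in the same extracts. Most fibroblast markers were present in every extract, since all 10 were kept and between 8 and 10 were above background in each. The extract with 8 was that of Lats2-/- cells of litter 121, where Pdgfra (ratio of -4.96) and Lum (-0.77) were not above background on most arrays. These markers had median ratios of 0.24, 2.22 and -0.95 in litters 112, 116 and 121, with 9 of 10 higher in litter 116 and 9 of 10 lower in litter 121. Col3a1 was at 0.13, 3.70 and -3.42 and Thy1 at -0.38, 2.05 and -3.66. The log2 of their mean linear signal, which the brightest of them dominate, was 14.40, 15.61 and 14.51 in Lats2-/- extracts and 14.45, 14.20 and 15.32 in Lats2+/+ extracts. Of 13 leukocyte marker names, 11 were on the array and 5 were kept, and the defining markers Ptprc, Itgam, Emr1, Aif1, Tyrobp and Laptm5 were not above background in any extract. Of the kept ones, Lyzs (lysozyme) had ratios of 0.05, 0.95 and 3.4 and was higher on 8 of 8 arrays, and Cd14 had -0.60, -1.64 and -0.74 and was higher on 0. The log2 of the mean linear signal of the kept leukocyte markers was 7.26, 7.87 and 9.60 in Lats2-/- extracts and 7.45, 8.81 and 7.40 in Lats2+/+ extracts. The value of 9.60 in litter 121 comes with a Lyzs signal of 11.76, and the other 4 of the 5 kept markers were lower in Lats2-/- cells there, with a median ratio over the 5 of -0.13. Of 6 epithelial marker names, 5 were on the array and 4 were kept. Krt19, a keratin, had ratios of 2.42 in litter 112 and 1.83 in litter 121, stood at least 1.20-fold above Lats2+/+ cells in litter 116, and had a limma p of 0.0307 (adjusted p of 0.755). Cdh1 (E-cadherin) was detected in 1 extract, that of Lats2-/- cells of litter 121. Krt8 and Krt18 were detected in Lats2+/+ cells alone in litter 116, where Lats2-/- cells were at least 1.23-fold and 1.24-fold lower, and their mean ratios were -0.06 and -0.10. Of 6 endothelial markers 3 were kept, and 1 or 2 were above background in each extract. Siglech and Irf8 of plasmacytoid dendritic cells, the main producers of type I interferon in the body, were not above background either. Bst2, the third marker of that list and a listed interferon response gene, was above background in all 6 extracts. The part of these other genes in the interferon values was not tested.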

How the data were processed

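RNA of Lats2-/- and Lats2+/+ MEFs of 3 litters was hybridised to 8 two-colour Agilent arrays. The authors extracted the scans with Feature Extraction (10.7.3.1 per the file headers, 10.5.1.1 per the submitters' processing notes). The deposited files hold the intensity of each spot and of its background in both channels. The deposited log10 values are ratios of red over green that the authors' software computed from background-subtracted, dye-normalized signals. A deposited value table, also of log10 ratios, was set against these and ran as Lats2-/- over Lats2+/+ on every array.

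Mean and background intensities were corrected with normexp (offset 50) and normalized within arrays by loess in limma 3.58.1 (R 4.3.3). Outlier spots (860) and control spots were left out, and repeat spots of 245 probes were averaged. Ratios were turned to Lats2-/- over Lats2+/+ and averaged within a litter, and the 3 litter ratios, 1 per litter, were tested against 0 with lmFit and eBayes over all kept probes, with Benjamini-Hochberg adjustment. Signals per extract were taken after Aquantile normalization. A kept probe was well above background on the majority of arrays of at least 1 of the 6 extracts. Where a probe was above background on no array of 1 genotype of a litter, the fold is a bound, "at least N-fold". It was taken against the dim signal or, if higher, the signal of the dimmest probe that was well above background. As a check of the code only, the test was run on simulated litter ratios, and no result here rests on that run. Python 3.11.15, pandas 2.3.3 and matplotlib 3.10.9 were used for tables and plots.

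The members and lists were chosen with earlier results of these data known. Genes are named by a rule: an unadjusted p under 0.05 or a 2-fold ratio in at least 1 litter (at least 15 and at most 30 genes, which gave 29), with Ifnar1, Ifnar2, Lats2 and 1 further gene that is not reported here always, and others are named with their values to complete a role group. The pairing of genotypes comes from the arrays, which each hold both extracts of a litter. Probe positions are those of the files in mm8. Promoters are from RefSeq (GRCm38.p6), matched by symbol. Alternatives were a normexp offset of 16, the processed signals, the value table, median centring, other filters, blocks for litter, slide and dye, an unpaired fit, the methods' t-test, 1 dye-swap pair of litter 121, the mean of probes, and leaving out each litter.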

Additional observations from a re-analysis of the deposited data

How the results depend on the processing

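With 3 litters, 1 embryo of each genotype in each, no alternative adds embryos, and dim probes limit what the ratios can show. The count of 0 interferon response genes past the adjusted threshold became 1, Isg20, with arrays as observations and litter, slide, or litter with a dye term as the block (371, 709 and 238 of all kept probes passed). It was 0 under every other alternative run. The 2 genes at an unadjusted p under 0.05 (6.52% of all kept probes) became 1 with the processed signals (5.65%) and 1 with the value table (5.65%). In the fit without the litter pairing (no replicate block) the count was 1 (2.38%). It was 13 with litter as a random block (13.0%), 13 with slide (17.5%) and 9 with litter and a dye term (12.2%). By the methods' t-test it was 0. There 1407 probes had an unadjusted p under 0.05 (5.55%), 71 of them with a 2-fold difference, and 0 passed after Benjamini-Hochberg. Leaving out litter 112, 116 or 121 gave 4, 3 and 7 genes (4.61%, 5.23% and 6.35%). The 1 gene that was also at least 2-fold (185 of all kept probes) became 6, 6 and 4 under the same blocks (439, 517 and 401 probes). It became 0 by the methods' t-test, and 2, 1 and 4 without litters 112, 116 and 121 (338, 251 and 347 probes). The median of the 43 mean ratios, 0.07, ran from -0.26 to 0.35 when a litter was left out.

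Alternatives for the litter counts were chosen after seeing the data. The 16 of 43 genes at least 2-fold lower in litter 121 became 28 with the processed signals and 28 with the value table (6.20% of all kept probes). With probes above background in all 6 extracts only 23 genes remained, and 9 of these 23 were at least 2-fold lower there (2.41%). The 12 of 43 at least 2-fold higher in litter 116 became 5 of 23 with that filter (4.32%). The 6 of 43 in litter 112 became 15 with the processed signals and 15 with the value table (6.12%). The cause was not tested.

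Over 29 named genes, 478 alternatives gave the same sign and side of the threshold, 24 reversed the sign, and 3, all Isg20, passed the adjusted threshold. The mean log2 ratio, when a litter was left out, ran for Iigp1 from -1.36 to 0.01, Gbp2 from -1.47 to 0.02, Gbp3 from -1.20 to 0.17, Ifit1 from -1.26 to 0.18, Ifitm3 from -0.18 to 1.79, Bst2 from -1.29 to 0.33, Oasl2 from -0.95 to 0.11, Psmb9 from -0.02 to 0.87 and Psmb8 from -0.27 to 0.92. It ran for Ifit3 from -0.95 to 0.37, Trim30 from -0.00 to 0.60, Ifi35 from -0.83 to 0.35, Mx2 from -0.60 to 0.05, Tap2 from -0.12 to 0.82, Isg15 from -1.04 to 0.88, Ddx58 from -0.48 to 0.52, Irf1 from -0.74 to 0.42 and Parp14 from -1.0 to 0.99. Without a change of sign, it ran for Usp18 from -1.47 to -0.12, Ifi205 from 0.46 to 2.10, Trim25 from -2.82 to -0.72, Ifi203 from 0.46 to 1.52, Ifi204 from 0.73 to 2.02, Ifi202b from 0.09 to 1.72, Ifih1 from 0.34 to 0.88, Ifitm1 from 0.23 to 0.75 and Stat2 from -0.84 to -0.20. Parp14, at 0.03, was also -0.12 with an offset of 16, -0.61 with the processed signals, -0.60 with the value table, -0.03 with median centring and -0.45 with slide as a random block. With the processed signals, mean ratios over 1.5 times those reported were 1.71 for Trim30 (1.76 with the value table), 1.37 for Ifih1, -1.85 for Iigp1, -1.37 for Oasl2, -1.5 for Ifit1, -1.62 for Usp18, -1.25 for Gbp2, -0.82 for Mx2, -0.54 for Isg15, 0.82 for Ifitm1, 0.97 for Psmb9 and 0.54 for Tap2. With slide as a random block Bst2 was at -1.0, Gbp3 at -1.19, Ifi35 at -0.76, Ifit3 at -0.79, Ifi203 at 0.48, Ifi204 at 0.73 and Ifitm3 at 0.04. With the mean of all kept probes Trim25 was at -1.03 and Ifih1 at 0.38.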
